A study of Mus musculus with 33 samples.

Results

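The question was what systemic JQ1, a bromodomain inhibitor, did to the transcriptome of area CA1 of the hippocampus in healthy young mice. The comparison set 8 JQ1-treated against 8 vehicle-treated wild-type (WT) mice, all the samples that the labels give these groups, which made 16 of the 33 samples of the series and of the 32 with values. Both groups were C57B/6JRj mice aged 3 months. The methods state that the purchased WT mice were males. The JQ1 group received 50 mg/kg intraperitoneally for 13 days, and the vehicle group received 10% DMSO by the same route for the same 13 days, so that injection and handling were common to both. CA1 was dissected from each mouse under a microscope and sequenced as bulk RNA, with no sorting of cells. By the methods, the mice were killed the day after the probe test, a memory test that followed training in a water maze. The other experiment of the series, in aged mice with an APP/PS1-21 transgene, is used here only to see what the genes that moved there did in the young mice. Its fit also held 4 aged WT mice given vehicle (8 to 10 months), which are not compared here.

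The BET family includes BRD2, BRD3 and the testis protein BRDT. BET proteins carry paired bromodomains that hold on to acetylated lysines of histones, and take part in the recruitment of the elongation kinase P-TEFb, which releases paused RNA polymerase II into the gene. JQ1 fills the pocket that binds the acetylated lysine and takes BET proteins off chromatin. In dividing cells a rise of Hexim1 and of certain histone genes such as Hist2h2be is a known mark of BET inhibition, and in neurons BET proteins have been tied to activity-dependent genes.

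The files gave FPKM (sequenced fragments per unit of transcript length and of library depth) for loci, the stretches into which the authors' Cufflinks run joined overlapping transcripts. Differences are given as JQ1 minus vehicle on a log2(FPKM + 0.1) scale, which understates the change of low genes, and were tested with limma and Benjamini-Hochberg adjustment over the 18420 loci with FPKM of at least 0.5 in at least 8 mice. An adjusted p under 0.05 was reached by 1 locus, or 0.00543% of those tested. At an unadjusted p under 0.05, 385 loci (2.09%) were higher and 472 (2.56%) were lower with JQ1, in all 4.65% of loci, against the 5% that this threshold passes when groups do not differ. The values of the groups did not overlap at 2 loci that were higher (0.0109%) and 3 that were lower (0.0163%). Counts of genes higher or lower with JQ1 are given below at the unadjusted threshold, to be read against these shares, and no gene but the first one below passed the adjusted test. Of all loci 51.1% had a positive difference, and of the loci with 1 gene symbol 54.6%. Of the 54 list medians, 5 stayed within 1.5 times their value whichever mouse was left out, and 24 changed sign without at least 1 mouse. Of the 75 named genes with an unadjusted p under 0.05, 34 kept it with every single mouse left out. Since the labels do not say whether the mice shared litters or days, the p-values measure the spread between these 16 mice only.

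Most differences were small, and most were bounded. The median over all loci was 0.0025, and the 95% confidence interval of a locus reached a median of 0.20 to either side, a 1.14-fold difference. Among the 12390 loci that carry the symbol of 1 gene, 93.2% differed by less than 0.2 in size and 70 (0.565%) by more than 0.5, and the interval excluded a 2-fold difference for 98.7% and a 1.5-fold difference for 93.9% of them. The first 4 principal components held 9.28%, 8.80%, 8.06% and 7.63% of the variance, and the scores of the groups overlapped on each. Markers of the dissected field were present in every mouse: the 11 CA1 pyramidal markers summed to 453 to 623 FPKM in JQ1-treated and 469 to 556 FPKM in vehicle-treated mice. Wfs1, which marks CA1 pyramidal neurons, was at 37.2 to 69.3 FPKM with JQ1 and at 34.5 to 59.2 FPKM with vehicle. In myelin genes 3 mice stood apart, JQ1 replicates 1 and 3 and vehicle replicate 3, with scores (defined with the cholesterol genes below) of −0.52, −0.37 and −0.43 against −0.03 to 0.25 in the others, and the medians of the cell marker lists below are given with and without these 3 mice. The depth of these samples is unknown, since FPKM keep no counts.

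The 1 locus that passed was B3galtl (mm10 chr5:149678230-149762599), a glucosyltransferase of the endoplasmic reticulum that extends the O-linked fucose of thrombospondin repeats. Its level was 5.25, 5.52 and 5.98 FPKM (lowest, median and highest of the 8 mice, as for every gene below) with JQ1 and 6.48, 6.93 and 7.82 FPKM with vehicle. It fell by 0.34 on the log2 scale (SE 0.0491, limma adjusted p = 0.0362), and the next smallest adjusted p of any locus was 0.253. With 1 mouse left out at a time its difference stayed between −0.36 and −0.32, but the adjusted p ran from 0.0333 to 0.135 and was above 0.05 in 14 of the 16 fits. Map3k12, a kinase of neurons upstream of JNK that responds to axon injury, stood at 35.8, 37.3 and 38.3 FPKM with JQ1 and 32.3, 33.3 and 34.1 FPKM with vehicle, a difference of 0.16 (95% CI 0.10 to 0.22). The groups did not overlap, the lowest treated mouse standing above the highest control. Cdkn1b, which encodes the cyclin-dependent kinase inhibitor p27, was at 13.5, 14.3 and 15.9 FPKM against 10.6, 12.8 and 13.5 FPKM, with a difference of 0.19 (95% CI 0.09 to 0.30), and again the groups just failed to overlap. Elmsan1, a subunit of a histone deacetylase complex with ELM2 and SANT domains, was low throughout, at 0.387, 0.582 and 0.669 FPKM with JQ1 and 0.673, 0.778 and 1.05 FPKM with vehicle, and its difference was −0.45 (95% CI −0.72 to −0.18). The third locus that was lower without overlap carried a gene model name only. Map3k12, Cdkn1b and Elmsan1 did not pass the adjusted test (limma adjusted p = 0.253, 0.981 and 0.981).

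At some loci where a gene and a short RNA share 1 name, single mice stood far above the rest. At 114 loci (0.619%) the mean FPKM of the groups differed at least 2-fold, and at 65 of them the medians did so as well. Of the 457 tested loci that join a gene with a Mir, Snor or Gm short RNA, 29 (6.35%) differed 2-fold by their means and 7 of those by their medians, while of the 12390 loci with 1 gene symbol 4 (0.0323%) differed 2-fold by their means. The others were 56 of the 2621 loci that carry a gene model name only (2.14%, 44 of them also by medians) and 25 of the 2507 loci with no name (0.997%, 12 also by medians). The highest mouse stood at 5 times the median or more at 11.4% of the joined loci, at 0.0888% of the loci with 1 symbol, at 2.06% of the gene models and at 2.07% of the loci with no name. Of the 8 genes with a repeat measurement by qPCR in young mice, 5 lie in such joined loci. In 3 of these loci the short RNA is a miRNA with an entry in the RefSeq table used here (build GRCm38.p6), and its mature forms are shown because the deposited value cannot be split between them and the messenger RNA. Capitals mark the seed, bases 2 to 8, which pairs with target transcripts, and no seed occurs in more than 1 of them.
miR-5134-3p (Ccnf locus, chr17:24234535-24234556, minus strand): aCGGGUGGcccucuuucugcag
miR-25-3p (Mcm7 locus, chr5:138165332-138165353, minus strand): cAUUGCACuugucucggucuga
miR-25-5p (Mcm7 locus, chr5:138165370-138165391, minus strand): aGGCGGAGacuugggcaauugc
miR-93-5p (Mcm7 locus, chr5:138165574-138165596, minus strand): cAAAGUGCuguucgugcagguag
miR-93-3p (Mcm7 locus, chr5:138165536-138165557, minus strand): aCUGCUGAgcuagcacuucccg
miR-3104-5p (Brsk2 locus, chr7:141992180-141992204, plus strand): uAGGGGGCaggagccggagcccucu
miR-3104-3p (Brsk2 locus, chr7:141992218-141992240, plus strand): aCGCUCUGcuuugcucccccaga

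Each of these short RNAs lies on the strand of its host gene. The precursors of Mir25 and Mir93, and the small nucleolar RNA Gm24067 of the Ppan locus, lie inside an exon of at least 1 transcript of the host, while Mir5134, Mir3104 and Gm23811, the last in Gria4, overlap an exon in part. Ccnf, a cyclin-like F-box protein, was at 64.9 FPKM in JQ1 replicate 6 and between 0.849 and 1.47 FPKM in the other 15 mice, so that the log2 ratio of the means was 3.04 and that of the medians 0.22. Mcm7, a subunit of the replicative helicase, was at 211 FPKM in JQ1 replicate 3 and at 32.6 FPKM in JQ1 replicate 2, against 5.64 to 8.04 FPKM in the remaining 14 mice. Its ratio of means was 2.32 and its ratio of medians −0.08, also on the log2 scale. In both loci the high values stood in 1 or 2 mice of the JQ1 group, and the rest of that group lay among the vehicle-treated mice or close to them. Ppan, which takes part in making the large ribosomal subunit, had 3 high mice, JQ1 replicates 2 and 7 with 95.2 and 37.2 FPKM and vehicle replicate 3 with 30.4 FPKM, and 13 mice between 4.44 and 10.3 FPKM.

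In the joined loci of Brsk2 and Gria4, both lower by their means, the high mice were controls. Brsk2, a kinase of neuronal polarity, was at 322 FPKM in vehicle replicate 2 and 311 FPKM in vehicle replicate 7 and at 55.7 to 66.2 FPKM in the other 14 mice, with a log2 ratio of −1.04 by means and −0.02 by medians. Gria4, the AMPA receptor subunit GluA4, was at 88.0 FPKM in vehicle replicate 5 and 77.1 FPKM in vehicle replicate 4 and at 19.5 to 29.5 FPKM in the others, with −0.64 by means and −0.02 by medians. None of these 5 loci had an unadjusted p under 0.05 in limma. By the study's qPCR, the genes of these loci changed in the same direction as in its sequencing, but less in size. Its other remeasured genes also kept their direction. How the qPCR results relate to the single high mice was not tested. The study's list of genes drawn from these mice has 38 entries with a single name, its entries with joined names or no name being left out here. Of these, 19 lie in joined loci with a short RNA and 16 were tested as loci of their own. At an unadjusted p under 0.05, 3 of the 16 were higher and 3 lower. A list chosen on these samples is no independent evidence of its direction. High mice also stood in 2 joined loci of genes that act beside BET proteins. The locus of the acetyltransferase gene Ep300, picked after its values were seen, was at 710.3 FPKM in JQ1 replicate 1 and at 8.43 to 10.96 FPKM in the other 15 mice, and that of Cdk9, the kinase of P-TEFb, was at 134 FPKM in JQ1 replicate 4 and at 45.1 to 63.5 FPKM in the other 15.

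**Figure D1:**
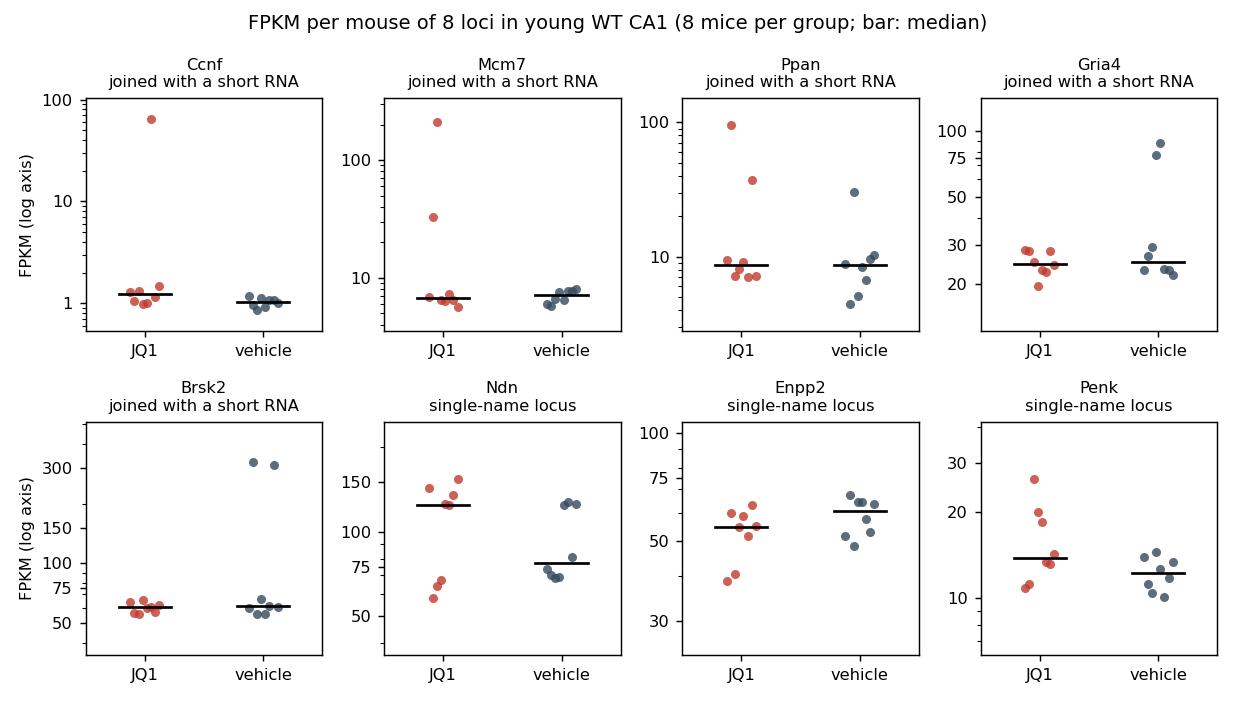
FPKM (log axis) of the 8 loci with a gene measured again by qPCR, 1 point per mouse, 8 JQ1-treated and 8 vehicle-treated mice, with a bar at the median of each group. In the 5 loci joined with a short RNA, 1 to 3 mice stand far above the others, while Ndn, Enpp2 and Penk spread without such mice.

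The remaining 3 of the 8 genes had loci of their own. Penk, the precursor of the enkephalin peptides, was at 10.8, 13.8 and 26.2 FPKM with JQ1 and 10.04, 12.2 and 14.5 FPKM with vehicle, and 3 JQ1-treated mice lay above every control. The difference was 0.33 (SE 0.158), with an unadjusted limma p of 0.0512. Enpp2, the secreted enzyme autotaxin, was at 38.6, 54.8 and 63.03 FPKM against 48.4, 60.5 and 67.2 FPKM with a difference of −0.16 (95% CI −0.38 to 0.05). Ndn, an imprinted gene of the Prader-Willi region that encodes necdin, fell into separate levels whatever the treatment: 8 mice lay between 124 and 154 FPKM and 8 between 58.1 and 81.1 FPKM, with none between. The upper level held 5 JQ1-treated and 3 vehicle-treated mice, and the difference of the groups was 0.20 (95% CI −0.32 to 0.72).

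Brd2 and Brd3 were expressed and moved little. Brd2 was at 64.8, 73.2 and 88.4 FPKM with JQ1 and 67.05, 77.6 and 84.02 FPKM with vehicle, with a difference of −0.03 (95% CI −0.18 to 0.12). Brd3 was at 11.2, 11.9 and 12.5 FPKM and 10.8, 11.5 and 12.6 FPKM, with 0.04 (95% CI −0.04 to 0.12). The groups overlapped over most of their ranges, and both intervals excluded a change of 1.5-fold. Brdt was read only in a locus joined with another gene. Among 26 other bromodomain genes, none passed the unadjusted threshold in either direction, and their median was 0.023. Of 26 tested genes of P-TEFb, its inhibitory 7SK particle, the elongation complexes and Mediator, 3 were higher and 0 lower, with a median of 0.024 beside 0.0025 for all loci. Hexim1, the 7SK protein that holds P-TEFb inactive, was at 13.96, 15.6 and 15.8 FPKM with JQ1 and 12.3, 13.9 and 15.7 FPKM with vehicle. All 8 JQ1-treated mice were above the vehicle median and 3 above the highest control, a difference of 0.14 (95% CI 0.04 to 0.25) with an unadjusted limma p of 0.0117. Mllt1, which encodes ENL, a reader of acetylated histones in the super elongation complex, was at 12.4, 14.97 and 17.5 FPKM against 12.4, 13.5 and 15.2 FPKM and differed by 0.15 (95% CI 0.02 to 0.28). Cdk8, the kinase of the Mediator complex, differed by 0.10 (95% CI 0.00 to 0.19).

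Of 12 tested genes that answer to BET inhibitors in other cells, 1 was higher, Hexim1 again, and 2 were lower, both of them histones, with a median of 0.000. Hist1h1c, a linker histone gene (H1.2), was at 6.29, 7.65 and 9.43 FPKM with JQ1 and 7.92, 9.32 and 14.01 FPKM with vehicle, and 4 treated mice lay below the lowest control. Its difference was −0.31 (95% CI −0.55 to −0.08). Hist2h2be, an H2B gene, was at 4.08, 4.47 and 5.01 FPKM against 4.64, 5.10 and 6.58 FPKM, with a difference of −0.21 (95% CI −0.36 to −0.06) and 5 treated mice below every control. Myc, the gene most often read as a sign of BET inhibition in tumour cells, was low in both groups, at 2.23, 2.47 and 3.07 FPKM and 1.70, 2.32 and 3.59 FPKM, and its interval held 0, with 0.12 (95% CI −0.16 to 0.40).

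Histone genes had a negative median, closer to 0 without 1 of the controls. Of 20 tested, 14 had a negative difference, with a median of −0.075, which was −0.019 without vehicle replicate 7 and −0.060 without the 3 mice of lowest myelin score, and 1 was higher and 2 lower at the unadjusted threshold, while 55 further histone genes stayed under the filter on low values. The lower genes were Hist1h1c and Hist2h2be. The higher one was the linker histone gene H1fx, at 4.12, 6.04 and 8.33 FPKM with JQ1 and 2.65, 4.17 and 6.35 FPKM with vehicle, a difference of 0.41 (95% CI 0.05 to 0.77). Enzymes that place or remove methyl groups on histones and DNA included 3 higher and 0 lower genes of 50, with a median of 0.041. Kdm4b, a demethylase of histone H3 lysine 9, had the largest difference of any tested gene on the pathway and marker lists, at 42.9, 55.3 and 95.8 FPKM with JQ1 and 18.98, 33.1 and 64.6 FPKM with vehicle. Every treated mouse was above the vehicle median and 2 were above the highest control, and the difference was 0.84 (95% CI 0.28 to 1.39) with an unadjusted limma p of 0.00565. Eed, a core subunit of the Polycomb complex that methylates lysine 27, differed by 0.19 (95% CI 0.05 to 0.34), and Kdm2a, a demethylase of lysine 36, by 0.11 (95% CI 0.01 to 0.22). Of 31 acetyltransferases, deacetylases and sirtuins 0 were higher and 0 lower, with a median of 0.037.

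Of 43 tested genes of replication and the cell cycle 3 were higher, Cdkn1b among them, and 2 lower, and the median was −0.022. Ccnd3, a D-type cyclin that drives entry into the cycle, was at 17.3, 18.6 and 19.9 FPKM with JQ1 and 11.7, 16.2 and 17.6 FPKM with vehicle. Every treated mouse was above the vehicle median and 5 above all controls, with a difference of 0.28 (95% CI 0.12 to 0.44). Rb1, the retinoblastoma protein that blocks the start of replication, was at 5.49, 7.93 and 10.6 FPKM against 3.43, 6.03 and 7.71 FPKM and differed by 0.45 (95% CI 0.07 to 0.82). Gins1, a part of the replicative helicase, and Birc5, which encodes survivin of the mitotic spindle, were both near the filter, with highest values of 2.02 and 0.680 FPKM among controls, and differed by −0.47 (95% CI −0.89 to −0.05) and −0.43 (95% CI −0.85 to −0.01).

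Among the pathway lists with at least 5 tested loci, cholesterol synthesis had the largest share of members on 1 side of 0. Of 23 tested genes 20 had a negative difference, with a median of −0.089, 4 were lower and 0 higher at the unadjusted threshold. Insig1, which holds the sterol sensor SCAP in the endoplasmic reticulum, was at 18.99, 23.1 and 25.9 FPKM with JQ1 and 23.2, 25.7 and 32.1 FPKM with vehicle and differed by −0.19 (95% CI −0.34 to −0.04), with much overlap. Idi1, the isomerase of isopentenyl diphosphate, differed by −0.20 (95% CI −0.37 to −0.04), and Sc4mol, a methyl sterol oxidase, by −0.24 (95% CI −0.45 to −0.03). The mean of the pathway's log2 values, each gene centred over the 16 mice, was −0.18, −0.04 and 0.06 with JQ1 and −0.06, 0.04 and 0.23 with vehicle, and 6 of 8 treated mice lay below the vehicle median. The median difference of the list stayed between −0.116 and −0.065 when any 1 mouse was left out. It was −0.093 without the 3 mice of lowest myelin score, −0.068 with the score of pyramidal neuron markers as a covariate and −0.088 with that of myelin genes. Astrocyte and myelin markers also had negative medians, as given further on, and the part of astrocytes in this result was not tested. Across the 16 mice the pathway's score was not seen to follow that of astrocytes (Pearson's r = 0.498, permutation p = 0.0503, adjusted 0.117 over the 10 relations examined, and Spearman's rho = 0.318, permutation p = 0.229, adjusted 0.327). Without the 2 mice farthest from the median r was 0.286, and it was 0.366 within JQ1-treated and 0.292 within vehicle-treated mice. With the myelin score the adjusted p was also above 0.05 (r = 0.396, permutation p = 0.131, adjusted 0.163, rho = 0.515, permutation p = 0.0438, adjusted 0.0876), while r was 0.585 without the 2 farthest mice, 0.371 within JQ1-treated and 0.227 within vehicle-treated mice. With the pyramidal score it was above 0.05 as well (r = −0.418, permutation p = 0.106, adjusted 0.163, rho = −0.129, permutation p = 0.634, adjusted 0.704, −0.181 without the 2 farthest mice, −0.367 within JQ1-treated and −0.217 within vehicle-treated mice).

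Genes that glucocorticoids induce, and genes of the circadian clock, had positive medians. Of 24 glucocorticoid response genes 18 (75%, beside 54.6% of loci with 1 symbol) had a positive difference, 4 were higher and 1 was lower. Their median was 0.071, between 0.053 and 0.091 with 1 mouse left out, and 0.042 when FPKM of at least 1 in every sample was asked, which 23 of them passed. Sgk1, a kinase that the glucocorticoid receptor induces and that regulates ion transport, was at 28.004, 34.2 and 58.1 FPKM with JQ1 and 22.7, 26.1 and 38.2 FPKM with vehicle. All treated mice were above the vehicle median though only 1 was above every control, and the difference was 0.32 (95% CI 0.01 to 0.62). Plin4, a coat protein of lipid droplets, was low, at 0.499, 0.804 and 2.63 FPKM against 0.250, 0.510 and 0.964 FPKM, and differed by 0.66 (95% CI 0.05 to 1.27) with 2 treated mice above the controls. Klf15, a transcription factor that the receptor induces directly, differed by 0.14 (95% CI 0.02 to 0.26). The lower gene was Pdk4, the kinase that shuts pyruvate dehydrogenase, with −0.14 (95% CI −0.27 to −0.01).

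Per1 belongs to both lists, as a clock repressor with sites for the glucocorticoid receptor. It was at 15.6, 19.2 and 25.4 FPKM with JQ1 and 13.3, 15.9 and 18.2 FPKM with vehicle, with 5 treated mice above every control and a difference of 0.22 (95% CI 0.02 to 0.42). Per2, its partner in the repressor complex, was at 6.76, 7.30 and 9.89 FPKM against 5.41, 6.75 and 7.41 FPKM, a difference of 0.19 (95% CI 0.03 to 0.36) with 4 treated mice above every control. Ciart, listed by its older name Gm129 and also a repressor of CLOCK and BMAL1, was at 12.1, 13.6 and 15.9 FPKM against 9.17, 11.9 and 14.4 FPKM, with 0.21 (95% CI 0.02 to 0.41). Of 20 clock genes 14 (70%) had a positive difference, with a median of 0.059, between 0.045 and 0.069 with 1 mouse left out, and 3 were higher and 0 lower. The clock score was −0.03, 0.03 and 0.08 with JQ1 and −0.11, −0.01 and 0.02 with vehicle, and the glucocorticoid score −0.04, 0.01 and 0.23 and −0.17, −0.03 and 0.00, so that the groups overlapped on both. Without the 3 mice of lowest myelin score the medians of the lists were 0.052 and 0.053. Over the 16 mice these scores, taken without the gene they share, were not seen to move together (Pearson's r = 0.298, permutation p = 0.246, adjusted 0.246, and Spearman's rho = 0.00294, permutation p = 0.996, adjusted 0.996, with r = −0.204 without the 2 farthest mice, −0.333 within JQ1-treated and 0.586 within vehicle-treated mice), nor was the glucocorticoid score seen to follow the pyramidal score (r = 0.396, permutation p = 0.129, adjusted 0.163, rho = 0.329, permutation p = 0.216, adjusted 0.327, r = 0.247 without the 2 farthest mice, 0.378 within JQ1-treated and −0.042 within vehicle-treated mice). The hour at which each mouse was killed is not given in the sources used here.

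CLOCK and BMAL1 bind the E-box CACGTG, and the promoters of the 2 clock repressors among these genes with that motif are shown from the RefSeq table (GRCm38.p6, 250 bases before to 50 after the start), with the motif in capitals. The motif reads the same on both strands.
Per1 (chr11:69098699-69098998, plus strand): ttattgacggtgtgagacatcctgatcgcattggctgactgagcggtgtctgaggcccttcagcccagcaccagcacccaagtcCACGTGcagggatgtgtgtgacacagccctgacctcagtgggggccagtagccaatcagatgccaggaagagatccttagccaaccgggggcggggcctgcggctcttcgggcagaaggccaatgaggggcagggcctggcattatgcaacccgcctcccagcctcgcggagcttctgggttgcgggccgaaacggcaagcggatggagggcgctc
Ciart (chr3:95882179-95882478, minus strand): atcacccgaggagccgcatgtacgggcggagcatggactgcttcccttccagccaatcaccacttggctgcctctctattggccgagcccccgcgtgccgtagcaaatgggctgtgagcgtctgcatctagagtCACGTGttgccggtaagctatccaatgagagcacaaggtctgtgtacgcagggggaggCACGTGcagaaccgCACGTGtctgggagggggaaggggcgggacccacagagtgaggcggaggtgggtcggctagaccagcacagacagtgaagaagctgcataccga

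Per1 held the motif once, 166 bases before its start, and Ciart held it 3 times, 116, 58 and 44 bases before its start. Of all 32851 promoters listed 7.15% held it, and of 27025 genes 8.09% had it in at least 1 promoter. It was found in 5 of 17 clock genes, 5 of 22 glucocorticoid response genes and 4 of 16 cholesterol genes with a promoter in the table. These are matches of letters and no sign of binding.

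Markers of pyramidal neurons and genes of the postsynaptic density moved together from mouse to mouse. All 11 pyramidal markers had a positive difference, with a median of 0.10, 1 of them higher at the unadjusted threshold, and 9 of 11 CA1 markers did, with a median of 0.073. With 1 mouse left out these medians went down to 0.056 (without JQ1 replicate 4) and 0.042 (without vehicle replicate 3), and without the 3 mice of lowest myelin score they were 0.15 and 0.092. Nrgn, neurogranin, which binds calmodulin in dendrites, was at 333, 457 and 506 FPKM with JQ1 and 317, 355 and 407 FPKM with vehicle. 5 treated mice lay above every control, and the difference was 0.28 (95% CI 0.09 to 0.48). Mpped1, a marker of CA1, was at 113, 126 and 144 FPKM against 112, 119 and 125 FPKM, with 6 treated mice above every control but a difference of only 0.11 (95% CI 0.01 to 0.20). Of 52 genes for postsynaptic scaffolds and signalling in long-term potentiation 39 were positive, with a median of 0.043, and 2 were higher, Nrgn and Baiap2. Without JQ1 replicate 4 that median was 0.0099. Baiap2, the scaffold protein IRSp53 of dendritic spines, was at 70.996, 91.1 and 110.3 FPKM against 60.9, 71.1 and 113 FPKM, with 0.27 (95% CI 0.03 to 0.51).

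The score of pyramidal markers was −0.23, 0.06 and 0.41 with JQ1 and −0.20, −0.11 and 0.10 with vehicle, and the postsynaptic score −0.07, 0.00 and 0.19 and −0.10, −0.05 and 0.08. In bulk tissue fewer cells of a type and less RNA per cell cannot be told apart. With the genes that both lists hold removed, the scores correlated over the 16 mice with Pearson's r = 0.945 and Spearman's rho = 0.924 (permutation p = 1e-05 for both, the smallest that these permutations can give, adjusted p = 0.0001 for both over 10 relations). Without the 2 mice farthest from the median r was 0.896, and it was 0.949 within the JQ1-treated and 0.966 within the vehicle-treated mice. With the pyramidal score as a covariate, and the 3 shared genes kept in both lists, the median difference of the postsynaptic list went from 0.043 to −0.022. Without the 3 mice of lowest myelin score it was 0.076. The postsynaptic score also ran against that of meningeal fibroblast markers (r = −0.774, permutation p = 0.00043, adjusted 0.00215, rho = −0.835, permutation p = 0.0001, adjusted 0.0005, −0.828 without the 2 farthest mice, −0.869 within JQ1-treated and −0.796 within vehicle-treated mice). That meningeal score spanned −0.71, −0.03 and 0.66 with JQ1 and −1.15, 0.08 and 0.87 with vehicle, the widest range of any list used here, and the median of its 14 genes was −0.044, and 0.036 without the 3 mice of lowest myelin score.

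**Figure D2:**
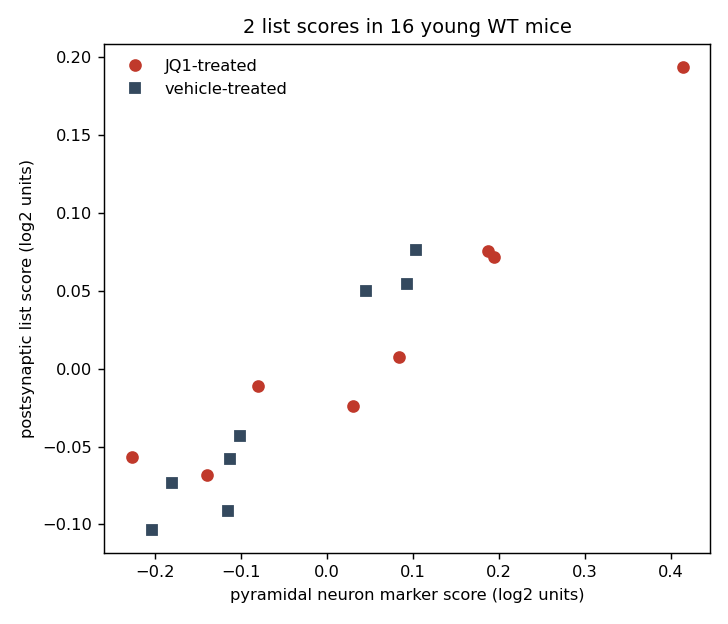
Score of postsynaptic genes against score of pyramidal neuron markers (mean centred log2 value over all genes of each list), 1 point per mouse, 8 JQ1-treated and 8 vehicle-treated. The points of both groups lie along 1 band, in which the groups overlap, from −0.23 to 0.41 on the pyramidal axis.

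Of 41 immediate early genes, which neurons switch on with activity, 1 was higher and 0 lower, a share close to that of all loci. Their differences were positive for 30 and had a median of 0.040, which was 0.017 without vehicle replicate 7. The higher gene was Egr3, a zinc finger factor, at 16.6, 20.9 and 25.5 FPKM with JQ1 and 15.8, 17.6 and 20.9 FPKM with vehicle, with 4 treated mice above every control and a difference of 0.19 (95% CI 0.04 to 0.35). The score of these genes followed the pyramidal score (r = 0.737, permutation p = 0.00113, adjusted 0.00377, rho = 0.697, permutation p = 0.00366, adjusted 0.0122, r = 0.601 without the 2 farthest mice, 0.818 within JQ1-treated and 0.595 within vehicle-treated mice), and the list's median was 0.010 with that score as a covariate. Few receptor and channel genes passed the unadjusted threshold. Of 24 AMPA, NMDA and kainate receptor genes none passed the unadjusted threshold in either direction (median −0.022), and none did of 15 GABA receptor genes (median 0.021) or 12 sodium channel genes (median 0.026). Of 69 potassium channel genes 1 was lower, Kcnc1, the Kv3.1 channel of fast-spiking interneurons, at 22.6, 29.4 and 35.9 FPKM with JQ1 and 29.7, 32.6 and 38.9 FPKM with vehicle, with −0.19 (95% CI −0.37 to −0.02). Of 15 calcium channel genes 1 was higher, the auxiliary subunit gene Cacnb3, with 0.13 (95% CI 0.00 to 0.25). Of 18 HCN and TRP channel genes 2 were higher and 1 lower, with a median of −0.003. The higher ones were the cation channel genes Trpv2, at 6.84, 7.73 and 8.95 FPKM with JQ1 and 6.43, 6.59 and 7.69 FPKM with vehicle and a difference of 0.19 (95% CI 0.05 to 0.33), and Pkd2l2, of the polycystin family, with 0.18 (95% CI 0.04 to 0.32). The lower one was Trpm3, a cation channel that pregnenolone sulphate opens, at 4.98, 5.74 and 7.68 FPKM against 5.82, 7.26 and 9.22 FPKM, with 4 treated mice below every control and −0.27 (95% CI −0.48 to −0.06). Of 6 metabotropic glutamate receptor genes 1 was lower, Grm3, with −0.17 (95% CI −0.30 to −0.03). Of 51 genes of synaptic vesicles and release 1 was higher, Rimbp2, which ties calcium channels to release sites, with 0.11 (95% CI 0.01 to 0.21) and a list median of 0.017.

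Among 26 neuropeptide genes 1 was higher and 1 lower. Crh, corticotropin-releasing hormone of hippocampal interneurons, was at 0.637, 0.984 and 1.32 FPKM with JQ1 and 1.09, 1.30 and 1.65 FPKM with vehicle, with 5 treated mice below every control and a difference of −0.40 (95% CI −0.68 to −0.12). Pcsk1n, the inhibitor of the prohormone convertase PC1/3, was at 10.9, 16.4 and 19.8 FPKM against 8.53, 11.01 and 17.4 FPKM, with 0.39 (95% CI 0.06 to 0.71). Interneuron markers as a list had a median of 0.050 over 21 genes, none of them past the unadjusted threshold, and of 0.022 without the 3 mice of lowest myelin score.

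Markers of astrocytes, myelin, oligodendrocyte precursors and vessels had negative medians, and those of microglia a median near 0. Of 20 astrocyte markers 15 were negative, with a median of −0.073, and 4 were lower and 0 higher. Aldh1l1, the folate enzyme that marks astrocytes, was at 12.999, 16.004 and 20.5 FPKM with JQ1 and 15.6, 18.2 and 20.8 FPKM with vehicle, and differed by −0.20 (95% CI −0.36 to −0.04). S100b, a calcium-binding protein, was at 52.8, 58.1 and 68.2 FPKM against 59.8, 64.998 and 80.4 FPKM, with 5 treated mice below every control and −0.16 (95% CI −0.30 to −0.03). Glul, glutamine synthetase, and Slc4a4, a bicarbonate transporter, differed by −0.09 (95% CI −0.17 to −0.01) and −0.16 (95% CI −0.31 to −0.01). The astrocyte score was −0.15, −0.01 and 0.03 with JQ1 and −0.05, 0.03 and 0.10 with vehicle, so that all 8 treated mice lay below the vehicle median though the highest of them only just, while the ranges overlapped. Of 24 oligodendrocyte and myelin genes 23 were negative, with a median of −0.12, but just 1 was lower, Opalin, a membrane protein of myelin, at 6.80, 11.97 and 14.1 FPKM against 9.56, 13.7 and 15.9 FPKM with −0.32 (95% CI −0.64 to −0.01). Their score was −0.52, 0.03 and 0.12 with JQ1 and −0.43, 0.12 and 0.25 with vehicle. Here too all 8 treated mice lay below the vehicle median, the highest of them only just. Without the 3 mice of lowest myelin score, JQ1 replicates 1 and 3 and vehicle replicate 3, the median of the myelin list was −0.067. These mice were picked by that list's own score, so this value is no independent check of it. The median of the astrocyte list was −0.023 without them and −0.045 with the myelin score as a covariate. With 1 mouse left out the astrocyte median ran from −0.085 to −0.030 (without JQ1 replicate 3) and the myelin median from −0.19 (without vehicle replicate 3) to −0.046 (without JQ1 replicate 1).

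Oligodendrocyte precursors had 7 of 9 markers below 0, with a median of −0.088, which was −0.052 without JQ1 replicate 1 and −0.051 without the 3 mice of lowest myelin score. Pdgfra, their growth factor receptor, was at 9.80, 10.5 and 10.9 FPKM with JQ1 and 10.8, 10.98 and 11.6 FPKM with vehicle, with 7 of 8 treated mice below the lowest control in a narrow range, and differed by −0.09 (95% CI −0.16 to −0.01). Of 13 mural cell markers 2 were lower, with a median of −0.084, which was −0.028 without JQ1 replicate 7 and −0.11 without the 3 mice. Mcam, the adhesion molecule CD146 of pericytes and smooth muscle, was at 5.04, 6.96 and 7.68 FPKM against 7.46, 8.14 and 9.93 FPKM, with 7 treated mice below every control and −0.33 (95% CI −0.51 to −0.15). Myl9, a smooth muscle myosin light chain, differed by −0.22 (95% CI −0.42 to −0.03). Endothelial markers had 15 of 17 below 0, with a median of −0.068, which was −0.014 without JQ1 replicate 7 and −0.040 without the 3 mice. Of these 1 was lower, the angiopoietin receptor gene Tek with −0.20 (95% CI −0.40 to −0.01), and 1 was higher, the lipid transporter of the blood-brain barrier Mfsd2a with 0.15 (95% CI 0.03 to 0.28). Microglial markers had a median of −0.012 over 20 genes, 8 of them positive, which changed sign without JQ1 replicate 3 (0.003), with the myelin score as a covariate (0.004) and without the 3 mice (0.019). Of them 2 were lower, Fcrls with −0.17 (95% CI −0.32 to −0.03) and the purine receptor gene P2ry13 with −0.19 (95% CI −0.37 to −0.01). Hba-a1, an alpha globin gene that marks blood left in the tissue, was at 5.73, 7.58 and 9.99 FPKM with JQ1 and 1.93, 5.48 and 7.14 FPKM with vehicle, with 5 treated mice above every control and a difference of 0.57 (SE 0.206), and the 7 blood genes had a median of 0.14, which ran from 0.073 without JQ1 replicate 7 to 0.25 without JQ1 replicate 3 and was 0.22 without the 3 mice. Dentate granule cell markers, from a field next to CA1, had a median of −0.10 over 11 genes and a wide score of −0.51, −0.15 and 0.73 with JQ1 and −0.53, 0.07 and 0.47 with vehicle, and their median was 0.021 without the 3 mice of lowest myelin score and −0.042 without vehicle replicate 8. The part of such differences in cell makeup between dissections in the results above was not tested beyond the covariates given.

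**Figure D3:**
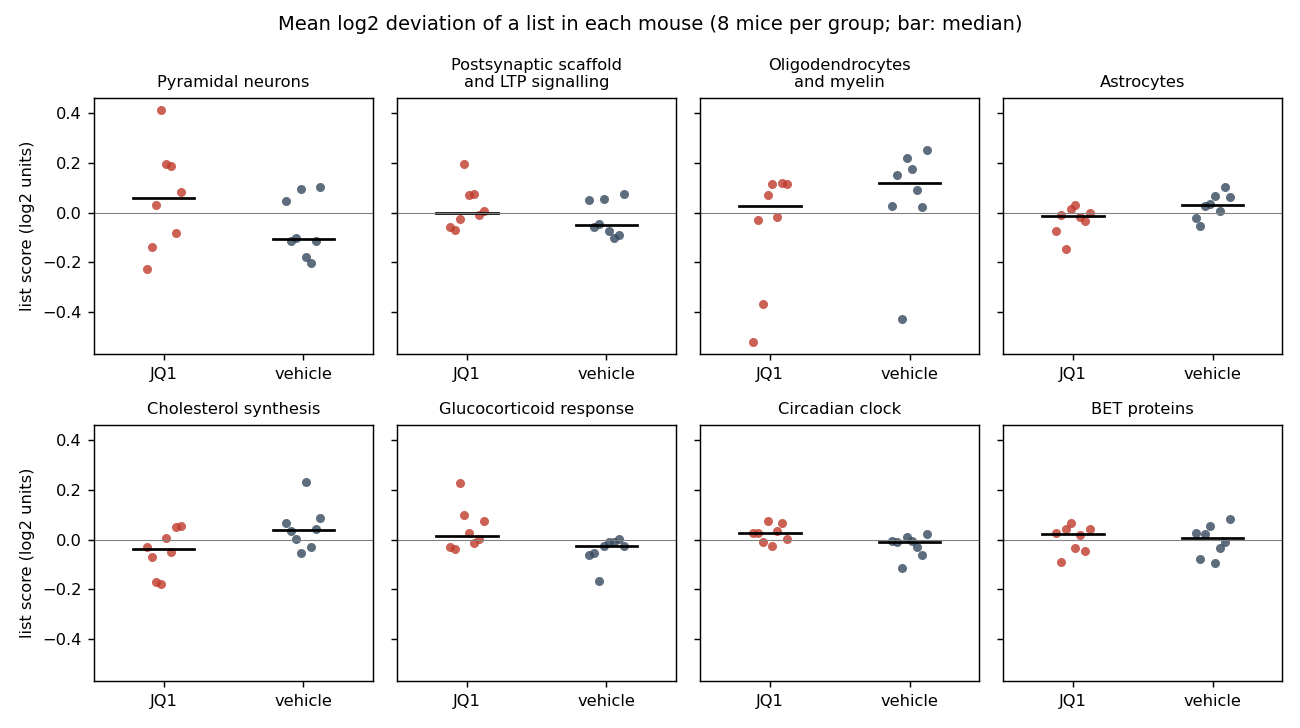
Score of 8 gene lists per mouse (mean of log2 values centred over the 16 mice), 8 JQ1-treated and 8 vehicle-treated, with a bar at each median. The groups overlap in every list. In the astrocyte list and in the list of oligodendrocytes and myelin all 8 treated mice lie below the vehicle median.

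In other pathways a few members passed the unadjusted threshold. Of 36 endoplasmic reticulum chaperones and genes of the unfolded protein response 26 were positive, with a median of 0.029, 4 were higher and 1 was lower. Dnajb9, a co-chaperone that IRE1 signalling induces, was at 22.5, 26.4 and 30.8 FPKM with JQ1 and 18.1, 21.9 and 28.5 FPKM with vehicle, with 0.23 (95% CI 0.04 to 0.41). Asns, asparagine synthetase and a target of ATF4, differed by 0.12 (95% CI 0.01 to 0.24), Derl3, which exports misfolded proteins, by 0.42 (95% CI 0.05 to 0.78), and Ero1lb, an oxidase for disulphide bonds, by 0.12 (95% CI 0.01 to 0.22). Selk, a selenoprotein, differed by −0.12 (95% CI −0.24 to −0.01). The score of this list lay above the vehicle median in all 8 treated mice, at −0.01, 0.01 and 0.09 with JQ1 and −0.07, −0.03 and 0.03 with vehicle. Of 68 genes for making ribosomes 4 were higher and 0 lower, with a median of 0.012. Of them 57.4% were positive, beside 54.6% of loci with 1 symbol. Their score was −0.02, 0.01 and 0.07 with JQ1 and −0.05, −0.02 and 0.07 with vehicle. It was again above the vehicle median in all 8 treated mice, though the lowest of them only just. Mphosph10, a part of the processome of the small subunit, was at 6.17, 7.45 and 8.48 FPKM against 5.73, 6.54 and 7.13 FPKM with 0.19 (95% CI 0.05 to 0.34), and Noc4l, Wdr12 and Utp15, which act in the same pathway, differed by 0.17, 0.15 and 0.09.

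The nuclear-encoded respiratory chain had 4 lower and 0 higher genes of 71, with a median of −0.006. Cox7b, a subunit of complex IV, differed by −0.22 (95% CI −0.37 to −0.06), Ndufb3 of complex I by −0.13 (95% CI −0.24 to −0.01) and Sdhc of complex II by −0.12 (95% CI −0.23 to −0.01). Of 111 DNA repair genes 2 were higher and 1 lower, with a median of 0.001. Gtf2h1, a subunit of the transcription and repair factor TFIIH, was at 14.3, 16.7 and 18.9 FPKM against 13.2, 14.4 and 16.4 FPKM with 6 treated mice above every control and 0.18 (95% CI 0.06 to 0.31). Rad23b, which steadies the damage sensor XPC, differed by 0.14 (95% CI 0.03 to 0.25), and Xpa, which checks the damaged strand, by −0.30 (95% CI −0.51 to −0.08). Interferon response genes had a median of −0.052 over 39 genes, from −0.10 without vehicle replicate 8 to −0.028 without vehicle replicate 7, with Psmb8, an immunoproteasome subunit, higher by 0.27 (95% CI 0.01 to 0.52) and Ifih1, the RNA sensor MDA5, with −0.37 (95% CI −0.68 to −0.06). In the list of NF-kB, cytokines and Toll-like receptors the median was −0.008 over 36 genes, of which 2 were higher and 2 lower. Median differences were 0.011 for glycolysis, 0.026 for heat shock proteins, 0.008 for lysosome and autophagy, −0.003 for complement and −0.024 for ribosomal proteins. The median of all loci was 0.0025. Each of these lists had at most 1 gene past the unadjusted threshold in each direction. Among 25 heat shock genes 18 were positive.

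**Figure D4:**
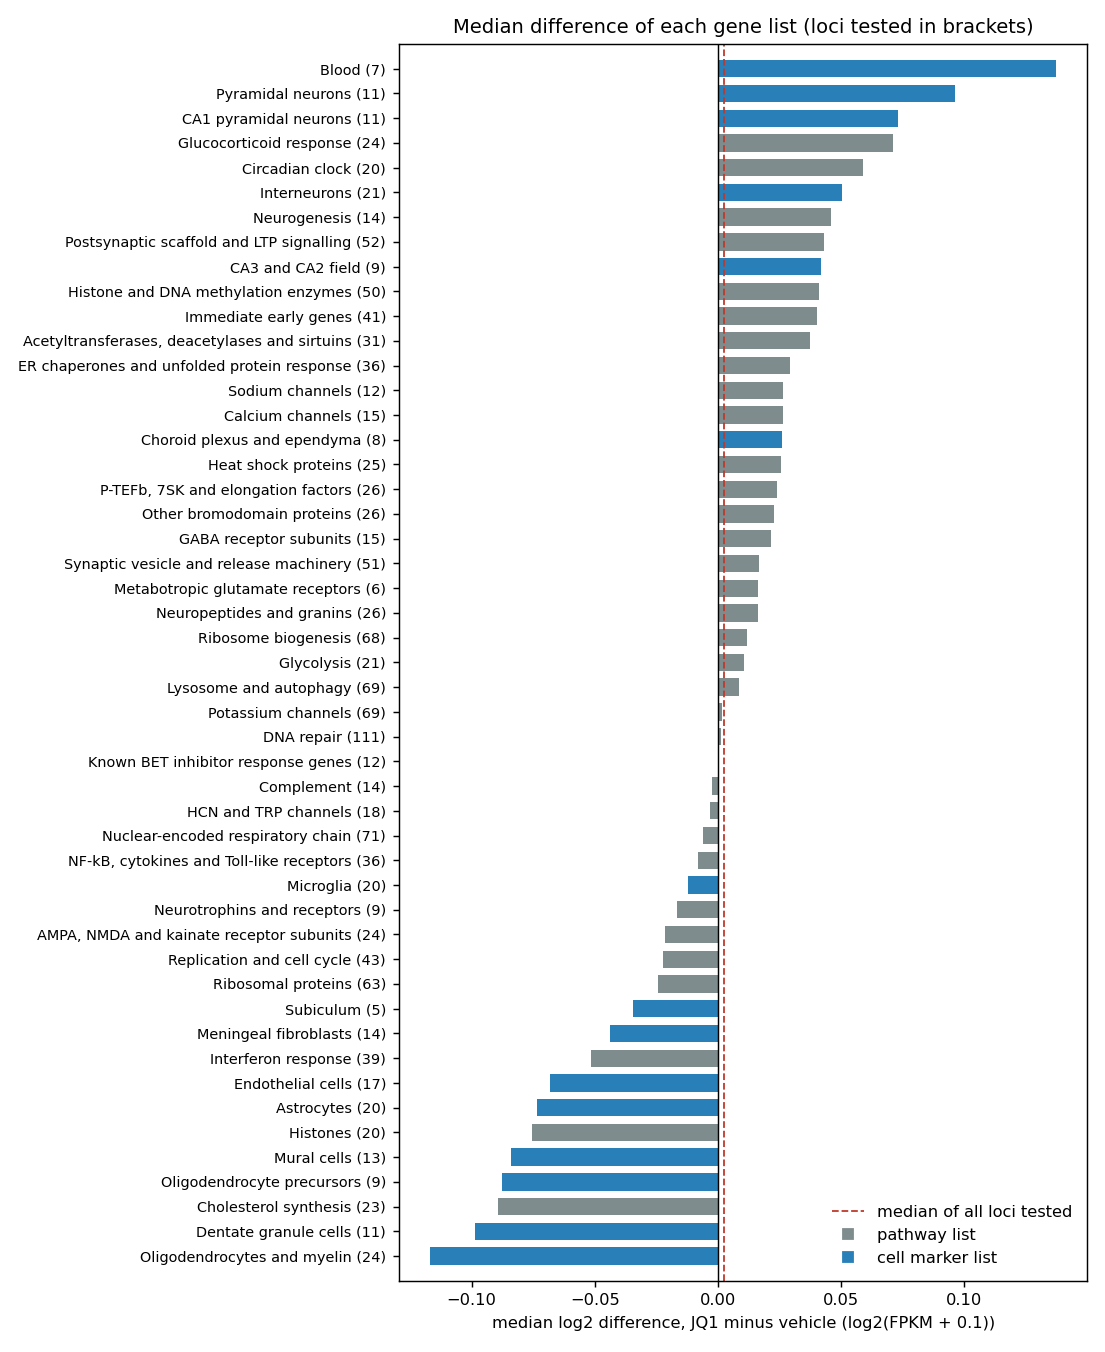
Bars give the median difference (JQ1 minus vehicle, log2(FPKM + 0.1)) of each gene list with at least 5 tested loci, pathway lists in grey and cell marker lists in blue, with the number of loci in brackets and a dashed line at the median of all loci. The medians lie between −0.12 for myelin genes and 0.14 for blood genes, against 0.0025 over all loci.

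In the other JQ1 experiment of the series, 6 aged APP/PS1-21 mice (8 to 10 months, in a C57B/6 background, 50 mg/kg JQ1 for 10 days) were compared with 6 such mice given vehicle. There 105 of 16962 genes (0.619%) were raised and 79 (0.466%) lowered at an adjusted p under 0.05 in edgeR's quasi-likelihood test of counts. That fit also held 4 vehicle-treated WT mice of 8 to 10 months, which share in the estimate of the spread. The 2 tables share no samples and were normalized separately. The difference between the experiments, which also differ in age, genotype and days of treatment, was not tested. The methods name males for the purchased WT mice and females for behavioral experiments in the APP line, so sex may differ as well. Of the genes raised in APP mice, 84 were tested in young mice as loci of their own, with a median of 0.009 and 57.1% positive, beside 0.0090 and 55.0% over the 11377 genes tested in both. Just 1 of them was higher in young mice at an unadjusted p under 0.05, Klhl7, with 0.12 (95% CI 0.02 to 0.23). Gucy1a2, a subunit of the nitric oxide receptor, which differed by 2.51 in APP mice, was at 8.23, 9.67 and 11.4 FPKM with JQ1 and 7.19, 7.87 and 11.3 FPKM with vehicle in young mice, with 0.16 (95% CI −0.03 to 0.36). Xkr4, a scramblase, differed by 2.16 in APP mice and by 0.06 (95% CI −0.11 to 0.22) in young mice.

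Of the genes lowered in APP mice, 57 were tested in young mice, and 54 of them (94.7%) had a positive difference there, with a median of 0.11 against −0.44 in APP mice. In young mice 5 were higher at the unadjusted threshold and 0 lower. The higher ones were Pcsk1n, Foxo6, a forkhead factor of hippocampal neurons, at 2.45, 3.72 and 4.93 FPKM with JQ1 and 1.92, 2.67 and 4.20 FPKM with vehicle, the kinase gene Tnk2, the LIM protein gene Pdlim7 and Ccdc85b, a repressor of transcription. They differed by 0.39 (95% CI 0.06 to 0.71), 0.35 (95% CI 0.00 to 0.69), 0.18 (95% CI 0.01 to 0.35), 0.29 (95% CI 0.03 to 0.54) and 0.29 (95% CI 0.01 to 0.57) in that order. Adam11, a catalytically inactive ADAM protein of synapses, differed by 0.16 (95% CI −0.07 to 0.39) and B4galnt4, a glycosyltransferase, by 0.07 (95% CI −0.07 to 0.22) in young mice. The score of the 57 genes was −0.19, 0.12 and 0.27 with JQ1 and −0.31, −0.06 and 0.17 with vehicle in young mice, with 6 of 8 treated mice above the vehicle median. It was not seen to follow the pyramidal score (r = 0.331, permutation p = 0.211, adjusted 0.235, rho = 0.294, permutation p = 0.268, adjusted 0.335, r = 0.125 without the 2 farthest mice, 0.125 within JQ1-treated and 0.437 within vehicle-treated mice). With the score of CA1 markers the rank correlation passed and Pearson's r did not (rho = 0.591, permutation p = 0.0177, adjusted 0.0444, r = 0.480, permutation p = 0.0584, adjusted 0.117, r = 0.619 without the 2 farthest mice, 0.313 within JQ1-treated and 0.600 within vehicle-treated mice).

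Base composition moved with both lists. The median GC content of the exons was 60.1% for the genes lowered in APP mice, 44 of the 57 of which fall among the 1238 loci richest in GC, 41.2% for the raised genes, 48 of the 84 of which fall among the 1238 poorest, and 49.8% over all loci with 1 symbol. With the loci cut into 10 bins of like size by GC content, the median difference in APP mice ran from 0.22 in the poorest bin to −0.25 in the richest. In young mice it was 0.025 in the poorest bin, near 0 in the middle and 0.055 in the richest, where 69.5% of loci were positive. The gap between the richest and the poorest bin in single young mice ran from −0.27 to 0.21 with JQ1 and from −0.34 to 0.16 with vehicle. After each mouse was corrected for GC content, the young median of the 57 genes was 0.064, with 47 positive.

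**Figure D5:**
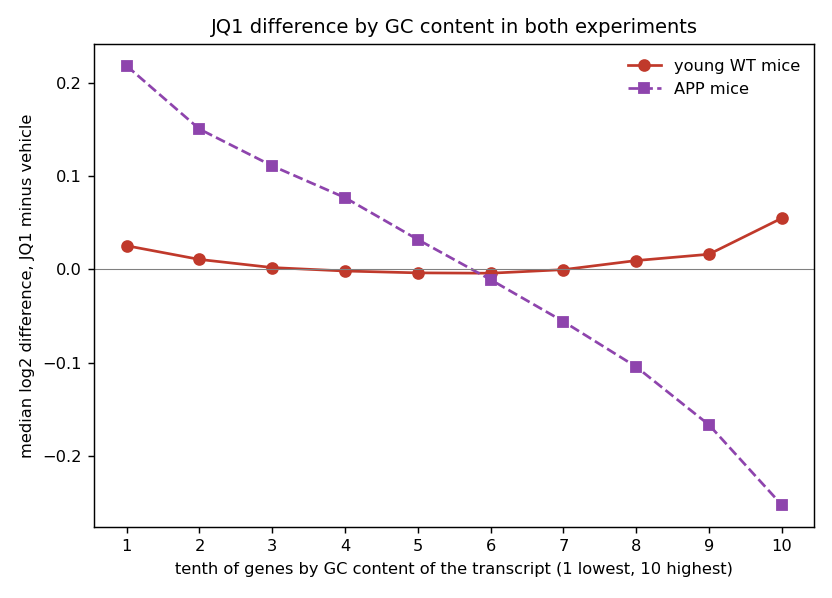
Median difference (JQ1 minus vehicle, log2) of loci in 10 bins of like size by exonic GC content, in young WT and in APP mice. The line of APP mice falls from 0.22 to −0.25, while that of young mice stays between −0.0041 and 0.055.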

How the data were processed

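RNA of microdissected CA1 was sequenced on a HiSeq2000. According to the methods and the labels, the authors deposited FPKM per locus from Cufflinks and Cuffdiff (mm10) for the young mice, and raw HTSeq counts of reads aligned with STAR for the aged mice. FPKM are scaled to transcript length and depth, and their depth is not recoverable. Here log2(FPKM + 0.1) was fitted with limma 3.58.1 (trend and robust, no covariates), and counts with edgeR 4.0.16 in 1 fit of 3 groups. R 4.3.3, DESeq2 1.42.0 and Python 3.11.15 were also used, and the fits were tested on simulated data.

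Named were the locus with an adjusted p under 0.05, loci whose groups did not overlap, the member of smallest p in each direction of each list (all members of the first 3 lists), the 8 genes of the study's qPCR, and the strongest genes of APP mice. Other members behind small counts were named after their values were seen, and some genes that the rule names are not reported here. The members, the 52 gene lists and the tests were chosen with earlier results of these data known. Genes in joined loci stayed out of the lists. Replicate numbers did not pair the mice: the correlation of same-numbered mice ran from −0.070 to 0.10 over 8 pairs. Permutation tests drew 100000 resamples, two-sided. GC content and exons came from the annotation of the same build. The alternatives tried are given with their effect at the end.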

Additional observations from a re-analysis of the deposited data

Results flagged for a closer look

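A sample was picked out where its gap to the next sample, as a share of the whole range of its group of 8, passed the 95% limit of Dixon's test. Chance picks about 1 in 20 groups, and 23 of 292 groups examined were picked (7.88%).

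Among the joined loci the shares were 0.992 for Ccnf in JQ1-treated mice (replicate 6), 0.868 for Mcm7 (replicate 3), 0.849 for Cdk9 (replicate 4) and 0.658 for Ppan (replicate 2), and 0.777 for Ppan in vehicle-treated mice (replicate 3).

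Other genes with 1 JQ1-treated mouse far from the rest were Sgk1 (0.727, replicate 3 highest at 58.1 FPKM), Plin4 (0.705, replicate 3 highest at 2.63 FPKM), Hexim1 (0.637, replicate 2 lowest at 14.0 FPKM), Kdm2a (0.57, replicate 1 highest), Xkr4 (0.545, replicate 8 lowest) and Aldh1l1 (0.527, replicate 2 highest). Sgk1 and Plin4, both of the glucocorticoid response list, were thus highest in the same mouse. Genes with 1 vehicle-treated mouse far from the rest were S100b (0.616, replicate 7 highest), Insig1 (0.59, replicate 5 highest), Cdkn1b (0.568, replicate 8 lowest at 10.6 FPKM), Hist1h1c (0.56, replicate 7 highest) and Fcrls (0.535, replicate 7 highest).

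Among list scores, those of vehicle-treated mice were picked for complement (0.669, replicate 7 highest), oligodendrocytes and myelin (0.659, replicate 3 lowest), glucocorticoid response (0.633, replicate 3 lowest), NF-kB and cytokines (0.578, replicate 7 highest), immediate early genes (0.537, replicate 4 highest) and endothelial cells (0.528, replicate 3 highest). In JQ1-treated mice the score of the genes raised in APP mice was picked (0.551, replicate 8 lowest).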

How the results depend on the processing

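The count of loci past the adjusted threshold in young mice was 1. It became 0 with no filter on low values, with the replicate block and without the 3 mice of lowest myelin score. With the pyramidal or the myelin marker score as a covariate it was also 0. The GC content correction gave 2, but was run over the 14422 loci with 1 symbol and a GC content, not all 18420. Its adjustment for multiple tests therefore covered fewer loci. The count ran from 0 to 2 when 1 mouse was left out (2 without vehicle replicate 6). Loci higher at an unadjusted p under 0.05, 385 in the report, were 584 with no filter on low values and 736 with the replicate block, and 311 to 661 with 1 mouse left out (661 without JQ1 replicate 2). Loci lower, 472 in the report, were 287 with FPKM of at least 1 in every sample and 851 with no filter, and 398 to 532 with 1 mouse left out. For APP mice, 105 raised genes became 371 with DESeq2 and 64 with the replicate block. With 1 mouse left out they ran from 50 (without JQ1-treated APP replicate 2) to 227 (without vehicle-treated APP replicate 2). The 79 lowered genes became 378 with DESeq2 and 23 with the replicate block. With 1 mouse left out they ran from 11 (without JQ1-treated APP replicate 4) to 255 (without aged vehicle-treated WT replicate 1). The list of genes lowered in APP mice that the report follows in young mice therefore rests on 1 choice of test. The covariates, the GC content correction and the fit without the 3 mice were chosen after seeing the data, and the cause of these changes was not tested.

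The replicate block changed no other call of a named gene past the adjusted threshold, and the numbers are shared by the mice in name only. Of 54 list medians, 30 kept their sign under every alternative fixed at the start and with each mouse left out and 24 changed it under at least 1 of them. Of the 92 genes named, 92 kept the sign of their difference under every alternative run. FPKM keep no counts, so counting error cannot be set beside any value of the young mice.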
